A study of Mus musculus with 30 samples.

Results

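The change in gene expression between 6 h and 12 h of normal development was measured in mouse forelimb buds, the outgrowths that become the arms. The comparison took the 6 solvent-control libraries of the count table that carry these times, DMSO 12 h replicates 1 to 3 against DMSO 6 h replicates 1 to 3, out of 30 libraries in 10 groups, and covered 13033 protein-coding autosomal genes that passed a filter on low counts, of 20569 protein-coding genes and 50833 genes in the table. Both groups were WT Swiss Albino embryos of females that received DMSO, the solvent, by intraperitoneal injection at E10.5, and the buds were collected 6 h or 12 h later as polyA RNA. By the study's methods the control injection was DMSO in PBS, each library came from the paired forelimb buds of an embryo, embryos of both sexes were used and several litters entered each condition. The remaining groups were DMSO at 1, 18 and 24 h and the porcupine inhibitor C59 at each of the same times, and here they served only for side by side values and for tests of a difference. Every control embryo was exposed to DMSO and no untouched embryo was analysed here, so the time after injection and any response to the injection that changes with time cannot be told apart.

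At this stage the limb bud is a pocket of mesenchyme under ectoderm. The apical ectodermal ridge at its rim sends FGFs, the posterior mesenchyme sends SHH, and the ectoderm sends WNTs, and BMPs with their antagonists tie these signals together. Proximal cells express *Meis* genes, which retinoic acid maintains, whereas distal cells activate the 5′ genes of the HoxA and HoxD clusters, which mark the future hand. In the core, cells that express *Sox9* condense and begin to lay down cartilage matrix. Muscle precursors arrive from the somites, lose *Pax3*, and turn on *Myod1* and *Myog*. Vessels, blood cells, nerves with Schwann cell precursors, and macrophages enter as well. The RNA of a whole bud is a mixture of all these cells, and more cells of a type cannot be told apart from more RNA per cell.

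The 6 libraries held 18188636 to 25290624 counts. Between any pair of replicates the counts varied beyond sampling noise (chi-square per degree of freedom 3.46 to 10.42), so none was a copy of another. The first principal component held 44.46% of the variance and separated the times, with DMSO 12 h replicate 2 farthest out at 16 beside 7.02 and 4.80 for the other 12 h libraries and -11.4, -6.51 and -9.95 for those of 6 h. In the FPKM table the summed level of 4 Y-linked genes was 0.00 in each 6 h library and 0.15, 38.56 and 0.24 FPKM in the 12 h libraries. DMSO 12 h replicate 2 was thus the only one of these 6 libraries with clear Y-linked expression and is called the male library below. The name is only a label. This library was also the farthest out along the component that separated the times, so its sex and any difference in its stage cannot be told apart. Some other DMSO libraries held both Y-linked RNA and the female-specific *Xist*, such as DMSO 18 h replicate 2 (21.02 and 42.18 FPKM). Whether such libraries held more than a single embryo was not tested. Sex was thus not balanced between the times. Values without the male library are given for some autosomal genes only. Others also lost their calls without it, such as *Col6a1*, *Sox6*, *Wnt5a*, *Fst*, *Ngfr* and *Crabp2*. Limb mesenchyme and forelimb identity were high in all 6 libraries: *Prrx1* stood at 703 to 829 CPM and the forelimb gene *Tbx5* at 213 to 262 CPM, whereas the hindlimb genes *Tbx4* and *Pitx1* stood at 11.7 to 16.3 and 0.492 to 1.34 CPM.

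Between 6 h and 12 h, 387 genes passed edgeR's quasi-likelihood test at a Benjamini-Hochberg adjusted p below 0.05, which is 2.97% of those tested, with 278 higher (2.13%) and 109 lower (0.836%) at 12 h. The changes were small. The median absolute log2 fold change of the 387 genes was 0.44, and 61 of them (0.468% of all tested) changed more than 2-fold by the estimate, 48 upwards and 13 downwards. By glmTreat, a test against a 2-fold change itself, 0 genes were higher and 6 lower. The 13 include genes described below that were raised at 6 h beside most other times, such as *Nr1h5*, *Rp1l1* and *Tmc6*. In all 387 the 3 values of one time lay wholly above those of the other, an arrangement found in 3126 genes (24%) of those tested. The replicates set the limit of these calls: with one library left out, between 107 genes (without DMSO 6 h replicate 3) and 449 genes (without DMSO 6 h replicate 2) passed, and 137 passed without DMSO 6 h replicate 1, 151 without DMSO 12 h replicate 1 and 206 passed without the male library, of which 177 were among the 387. Libraries that took no part in the comparison were also examined. In DMSO at 18 h against 1 h, chosen after the data had been seen, 354 of 382 genes tested in both (92.7%) had the same sign, beside 69.6% of all genes tested in both. In that contrast 39.4% of all genes passed, and of the 382 genes 317 passed with the same sign and 13 with the opposite sign. Agreement was lower in 2 other contrasts. In DMSO at 24 h against 18 h 297 of 382 genes (77.7%) had the same sign, beside 60.9% of all genes. In C59 at 12 h against 6 h 342 of 383 (89.3%) did, beside 66.5% of all genes.

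**Figure D1:**
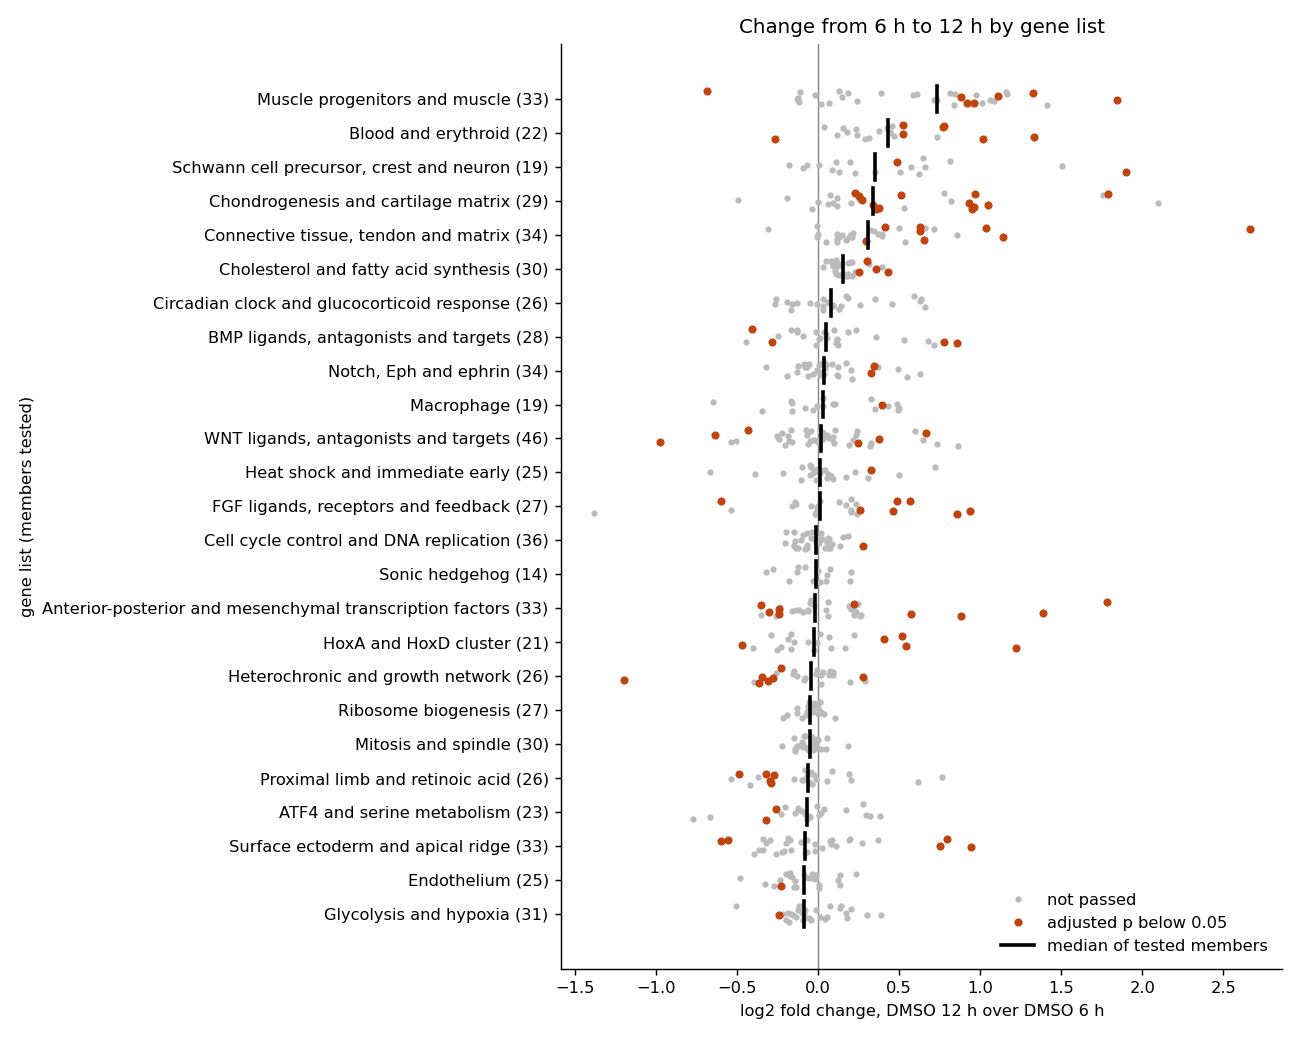
Log2 fold change (x axis, DMSO 12 h over DMSO 6 h) of each tested gene in 25 lists (y axis, with the number tested); red points passed at an adjusted p below 0.05, gray points did not, and black bars are list medians. Red points lie only to the right of 0 for the cartilage, connective tissue and cholesterol lists, only to the left for the proximal limb list, and on both sides for most signaling lists, and the muscle list has the highest median (0.74).

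Genes at the 5′ end of HoxD rose, as did *Hoxa13* in HoxA, whereas *Evx1*, the *Evx* gene beside HoxA, did not pass. Of 21 tested genes of the HoxA and HoxD clusters with their *Evx* neighbors, 4 passed upwards and 1 downwards, with a median log2 fold change of -0.026 beside 0.0030 for all genes tested. Those that passed were 23.8% of the list, beside 2.97% of all genes tested. *Evx2* (ENSMUSG00000001815, chromosome 2, 74652991 to 74659557), a homeobox gene at the 5′ end of HoxD, stood at 11.4, 13.1 and 7.98 CPM at 6 h and 21.4, 28.4 and 26.4 CPM at 12 h (log2 fold change 1.22 ± 0.16 (SE), edgeR adjusted p 0.00259). *Hoxd13*, which patterns the digits, stood at 189.5, 195 and 184 CPM at 6 h and 253, 269.5 and 291 CPM at 12 h (log2 fold change 0.52 ± 0.056 (SE), edgeR adjusted p 0.000836). *Hoxa13*, its counterpart in HoxA, stood at 48.6, 54.2 and 46.8 CPM at 6 h and 71.6, 73.3 and 73.2 CPM at 12 h (log2 fold change 0.55 ± 0.062 (SE), edgeR adjusted p 0.00122). In these 3 genes every 12 h library lay above every 6 h library, with gaps wider than the spread inside either group, and each passed with any one library left out. *Hoxd12* rose by less, from 118, 118 and 112 CPM to 150.1, 150.4 and 161 CPM (log2 fold change 0.40 ± 0.049 (SE), edgeR adjusted p 0.00182), and also passed with any library left out. *Hoxd9*, which is active earlier in the more proximal limb, fell from 106, 101 and 99.6 CPM to 78.9, 62.1 and 80.3 CPM (log2 fold change -0.47 ± 0.084 (SE), edgeR adjusted p 0.0137), lowest in the male library. Its call was lost without DMSO 6 h replicate 1 (log2 fold change -0.44, adjusted p 0.056) and also without replicate 3 (-0.50, adjusted p 0.0569). The genes between them did not pass: *Hoxd10* had a log2 fold change of 0.015 ± 0.054 (edgeR adjusted p 0.915), *Hoxd11* one of 0.065 ± 0.071 (0.675) and *Hoxa11*, a gene of the forearm segment, one of -0.19 ± 0.058 (0.115).

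**Figure D2:**
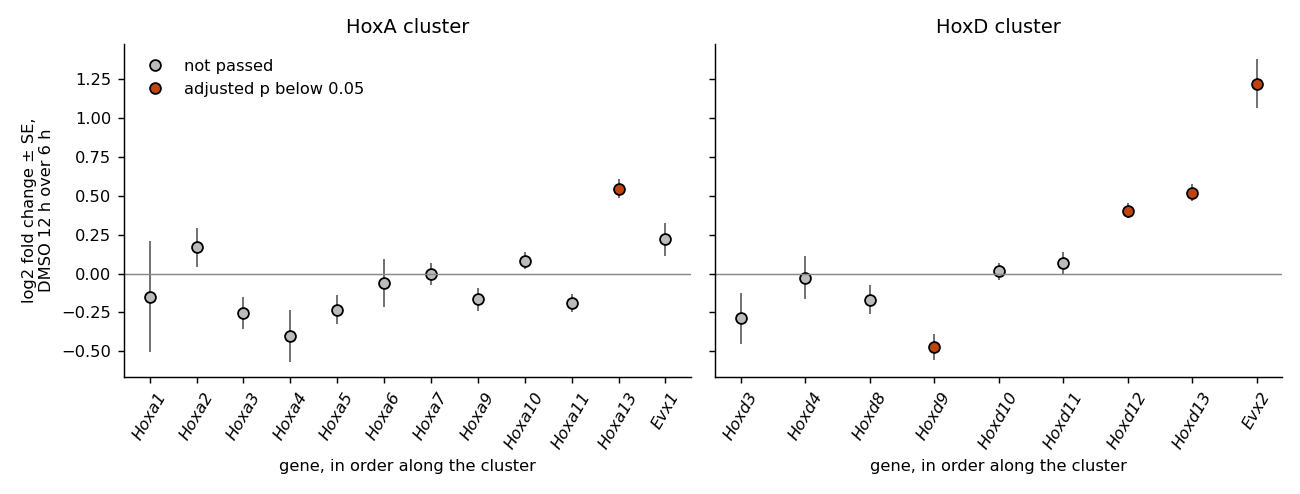
Log2 fold change from 6 h to 12 h (y axis, points with SE bars) for the tested genes of the HoxA and HoxD clusters in cluster order (x axis); red points passed at an adjusted p below 0.05. The red points above 0 sit at the 5′ end (*Hoxa13*, *Hoxd12*, *Hoxd13*, *Evx2*), and *Hoxd9* is the red point below 0.

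The genes of the proximal and retinoic acid list that passed all fell. Of 26 genes 5 (19.2%) passed, each lower at 12 h, beside 0.836% of all genes, and 6 had a positive log2 fold change (list median -0.062). *Crabp1*, a cytoplasmic carrier of retinoic acid, fell from 153, 136 and 147 CPM to 112, 108 and 89.6 CPM (log2 fold change -0.49 ± 0.078 (SE), edgeR adjusted p 0.0084), and passed with any library left out. The related carrier *Crabp2* went from 379, 349.9 and 359 CPM to 311, 273 and 315 CPM (log2 fold change -0.27 ± 0.060 (SE), edgeR adjusted p 0.0359). Neither gene had overlapping groups, and 12 h values lay below all 6 h values. The homeobox genes *Irx3* and *Pbx3* changed by -0.32 ± 0.059 and -0.30 ± 0.056 on the log2 scale (edgeR adjusted p 0.0167 and 0.0177). The calls of *Crabp2* and of both these genes were each lost with at least 3 of the 6 libraries left out in turn (highest adjusted p of *Crabp2* 0.108), and 1 to 6 of the list passed with one library left out, the fewest without DMSO 6 h replicate 1 or 3. *Irx3* shares exon sequence with a noncoding gene on the other strand. The classical proximal markers *Meis1* (-0.15 ± 0.051, edgeR adjusted p 0.157) and *Meis2* (-0.092 ± 0.073, 0.555) did not pass, nor did *Cyp26b1*, the enzyme that clears retinoic acid distally (0.20 ± 0.061, 0.109).

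Most members of the heterochronic and growth list that passed fell. Of 26 tested genes, 6 were lower and 1 higher at 12 h (26.9%, beside 2.97% of all genes tested). A positive log2 fold change was found in 11 members, and 2 to 6 passed with one library left out. *Lin28a* (ENSMUSG00000050966, chromosome 4, 134003330 to 134018841), an RNA-binding protein that blocks maturation of let-7 microRNAs, fell from 12.8, 11.4 and 9.38 CPM to 5.22, 4.34 and 5.08 CPM (log2 fold change -1.20 ± 0.15 (SE), edgeR adjusted p 0.00214). Its paralog *Lin28b* fell from 62.9, 64.4 and 58.3 CPM to 51.3, 45.2 and 47.8 CPM (log2 fold change -0.36 ± 0.065 (SE), edgeR adjusted p 0.0137). All 12 h values of both genes lay below all 6 h values, and *Lin28a* passed with any library left out, whereas *Lin28b* was lost without DMSO 6 h replicate 1 (log2 fold change -0.35, adjusted p 0.0558). *Arid3a*, *Arid3b*, the de novo DNA methyltransferase gene *Dnmt3b* and the imprinted gene *Mest* changed by -0.35 ± 0.062, -0.28 ± 0.064, -0.31 ± 0.054 and -0.23 ± 0.043 on the log2 scale (edgeR adjusted p 0.0139, 0.0405, 0.0136 and 0.0177), and each lost its call with at least one library left out. *Mest* shares exon sequence with *Copg2* on the other strand, and the strand of counting was not stated. *Cdkn1c*, an imprinted inhibitor of the cell cycle, was the member that rose, from 241, 244 and 276 CPM to 306, 324 and 290.1 CPM (log2 fold change 0.28 ± 0.060 (SE), edgeR adjusted p 0.0338; highest adjusted p with one library left out 0.125). *Hmga2*, a chromatin protein of growing tissue and a let-7 target, had a log2 fold change of -0.15 ± 0.044 (edgeR adjusted p 0.0975).

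**Figure D3:**
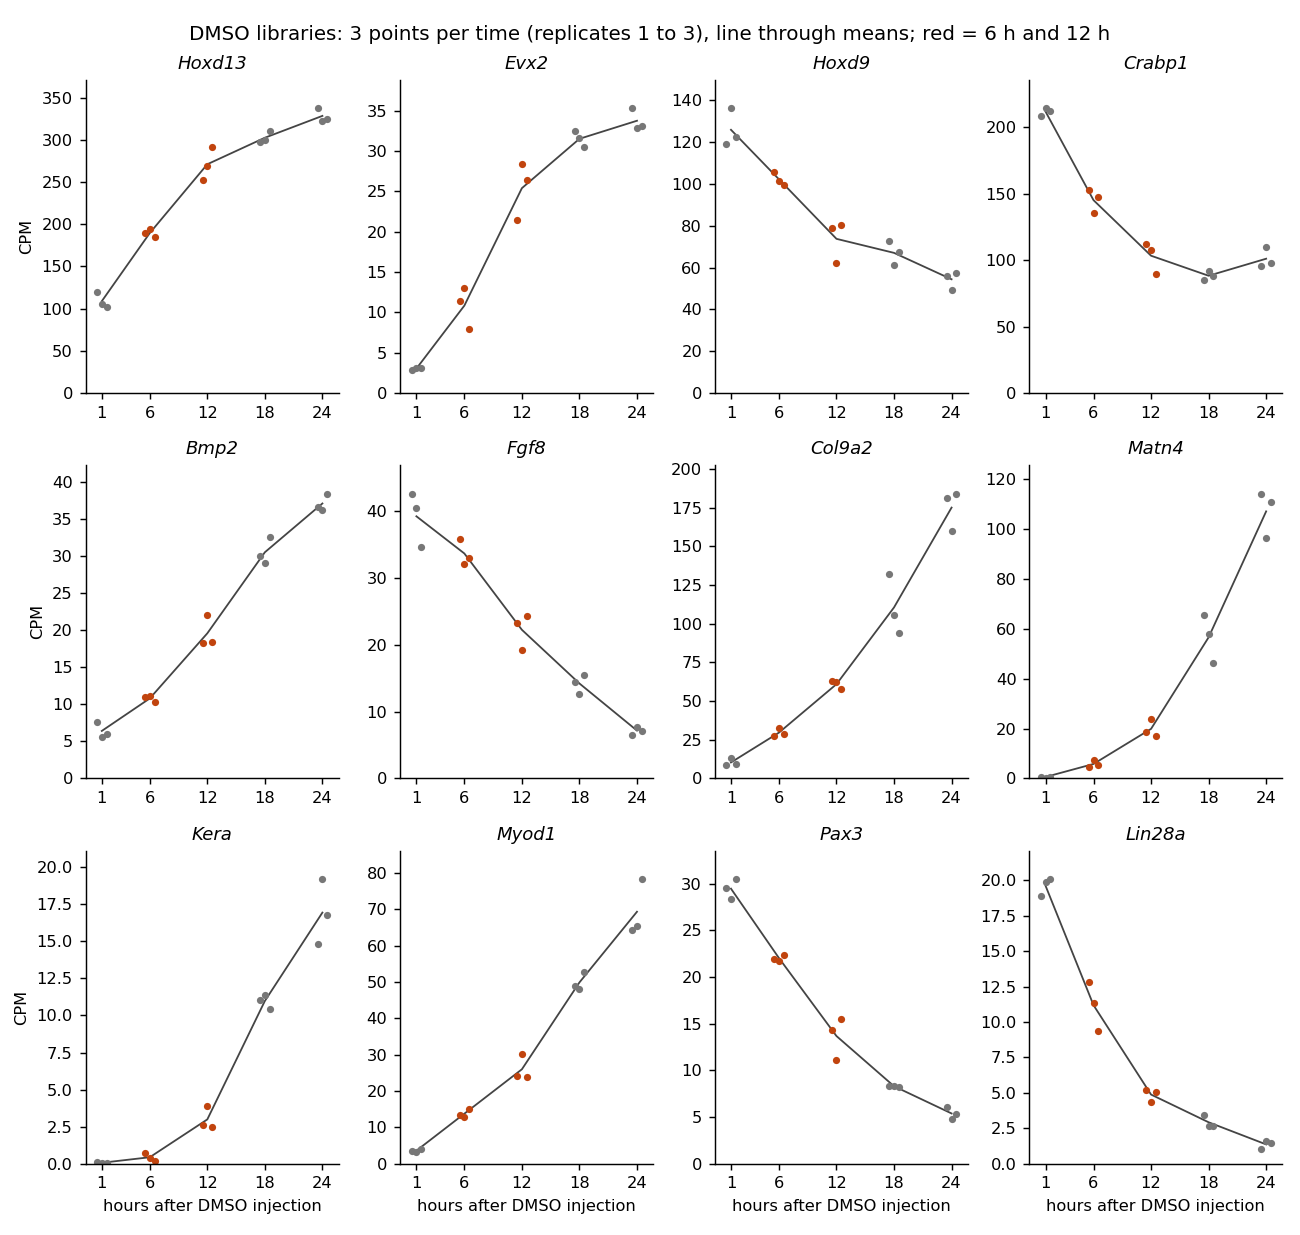
CPM (y axis, from 0) of 12 genes in the 15 DMSO libraries against hours after injection (x axis), 3 points per time with a line through the means; 6 h and 12 h are red. *Hoxd13*, *Evx2*, *Bmp2*, *Col9a2*, *Matn4*, *Kera* and *Myod1* step up between the red groups and *Hoxd9*, *Crabp1*, *Fgf8*, *Pax3* and *Lin28a* step down, with no overlap between the red groups in any panel.

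In the FGF list the ridge signal *Fgf8* fell while several other members rose. Of 27 tested genes 6 passed upwards and 1 downwards (25.9%, beside 2.97% of all genes tested). *Fgf8* went from 35.9, 32 and 33 CPM to 23.2, 19.2 and 24.3 CPM (log2 fold change -0.60 ± 0.092 (SE), edgeR adjusted p 0.00698), lowest in the male library, and passed with any library left out. *Fgf4*, another ridge ligand, was at a low level, 1.19, 1.080 and 2.27 CPM at 6 h and 0.690, 0.385 and 0.614 CPM at 12 h. It had the lowest log2 fold change of the list and its groups did not overlap, but it did not pass (log2 fold change -1.38 ± 0.40, edgeR adjusted p 0.0921). *Fgf18* rose from 10.6, 8.74 and 8.04 CPM to 12.8, 14.4 and 13.6 CPM (log2 fold change 0.57 ± 0.12 (SE), edgeR adjusted p 0.0328). *Fgf9* had a log2 fold change of 0.48 ± 0.11 (edgeR adjusted p 0.0395). *Fgf10*, the mesenchymal ligand that maintains the ridge, stood at 29.2 ± 1.83 CPM at 6 h and 29.4 ± 2.497 CPM at 12 h (SD, n = 3; log2 fold change 0.010 ± 0.081, 0.96). Among receptors *Fgfr4*, which also marks muscle precursors, rose from 4.42, 4.94 and 5.83 CPM to 10.54, 10.4 and 7.82 CPM (log2 fold change 0.94 ± 0.16 (SE), edgeR adjusted p 0.0119). The feedback inhibitors *Spred3* (0.46 ± 0.076, edgeR adjusted p 0.0104) and *Spry2* (0.26 ± 0.061, 0.0443) rose, whereas *Dusp6*, another readout of FGF signaling, did not pass (-0.020 ± 0.048, 0.866). With one library left out 3 to 5 of the list passed, and of the risers above only *Bmp2*, counted in this list and described with the BMP genes, kept its call each time.

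None of the 14 tested SHH pathway genes passed edgeR's test, 5 had an unadjusted p below 0.05, and 1 passed with DESeq2. Over all genes tested 2.97% passed edgeR's test. *Shh* itself stood at 14.3, 14.2 and 15.3 CPM at 6 h and 11.5, 10.55 and 14 CPM at 12 h (log2 fold change -0.28 ± 0.12, edgeR adjusted p 0.237), with the 12 h values below those of 6 h. The receptor and target *Ptch1* had a log2 fold change of 0.012 ± 0.069 (0.943) and the target *Gli1* one of 0.20 ± 0.061 (0.117). *Hand2*, the transcription factor upstream of *Shh*, stood at 130.4, 122 and 120.2 CPM at 6 h and 139, 139 and 151 CPM at 12 h (log2 fold change 0.20 ± 0.054 (SE), edgeR adjusted p 0.0693).

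WNT genes moved both ways. Of 46 tested genes 3 rose and 3 fell (13%, beside 2.97% of all genes tested). The R-spondins are secreted amplifiers of WNT signaling, and *Rspo4* fell from 43.1, 35.2 and 35.9 CPM to 25.1, 17.7 and 15 CPM (log2 fold change -0.98 ± 0.15 (SE), edgeR adjusted p 0.00712) while *Rspo2*, which is made in the ridge, changed by -0.43 ± 0.084 on the log2 scale (edgeR adjusted p 0.0206). Among secreted antagonists *Dkk1* fell from 21.3, 18.3 and 19.7 CPM to 12.4, 12.2 and 13.6 CPM (log2 fold change -0.63 ± 0.10 (SE), edgeR adjusted p 0.00607) and *Dkk2* rose from 15.4, 14.8 and 14.6 CPM to 22.4, 26.1 and 22.5 CPM (log2 fold change 0.66 ± 0.089 (SE), edgeR adjusted p 0.00314). The groups of *Rspo4*, *Dkk1* and *Dkk2* did not overlap and their calls were kept with any library left out. *Sfrp2*, an antagonist of the space between digits, rose by 0.37 ± 0.063 (edgeR adjusted p 0.0113) and the ligand *Wnt5a*, which guides distal outgrowth, by 0.25 ± 0.048 (0.0209). The direct targets *Axin2* (107, 116 and 103 CPM at 6 h and 111, 109 and 109 CPM at 12 h; log2 fold change 0.013 ± 0.053 (SE), edgeR adjusted p 0.922) and *Lef1* (log2 fold change 0.031 ± 0.057, 0.816) did not pass, and the *Axin2* groups overlapped. With one library left out 3 to 8 of the list passed, and *Wnt5a* was among those lost without the male library.

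Among 28 tested BMP genes 2 rose and 2 fell (14.3%, beside 2.97% of all genes tested). The ligand *Bmp2* rose from 10.9, 11.2 and 10.3 CPM to 18.2, 22.1 and 18.4 CPM (log2 fold change 0.86 ± 0.10 (SE), edgeR adjusted p 0.00182), every 12 h value above every 6 h value, and passed with any library left out. *Bmp4* and *Bmp7* did not pass, at log2 fold changes of 0.0073 ± 0.051 and 0.056 ± 0.050 (edgeR adjusted p 0.956 and 0.606). The antagonist *Fst* rose from 3.81, 4.22 and 3.55 CPM to 6.16, 7.80 and 5.87 CPM (log2 fold change 0.77 ± 0.17 (SE), edgeR adjusted p 0.0328; highest adjusted p with one library left out 0.123), whereas *Grem1*, the antagonist that links SHH to the ridge, had a log2 fold change of 0.12 ± 0.051 (0.261). Of the targets, *Msx1* fell from 163, 161 and 158 CPM to 120.4, 111 and 131 CPM (log2 fold change -0.41 ± 0.060 (SE), edgeR adjusted p 0.00509) and *Id2* changed by -0.28 ± 0.058 (0.027), while *Msx2* (-0.13 ± 0.10, 0.528) and *Id1* (-0.17 ± 0.060, 0.172) did not pass. *Msx1* kept its call with any library left out, *Id2* did not, and 2 to 4 of the list passed then.

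Among 33 transcription factors of the mesenchyme 5 rose and 4 fell (27.3%, beside 2.97% of all genes tested). *Pax9*, a gene of the anterior margin, rose from 2.01, 1.90 and 1.92 CPM to 4.43, 5.33 and 5.59 CPM (log2 fold change 1.39 ± 0.19 (SE), edgeR adjusted p 0.00338). *Tfap2b* rose from 69.3, 69 and 62.6 CPM to 89.6, 107 and 102 CPM (log2 fold change 0.57 ± 0.071 (SE), edgeR adjusted p 0.00214). Both kept their calls with any library left out and neither had overlapping groups. *Zic1* rose from a very low level, 0.328, 0.308 and 0.291 CPM, to 0.985, 0.934 and 1.34 CPM (log2 fold change 1.78 ± 0.37 (SE), edgeR adjusted p 0.0281), and its call was lost with each library left out (up to 0.107). The forelimb gene *Tbx5* rose slightly (0.22 ± 0.046, edgeR adjusted p 0.0272). *Lhx2* and *Lhx9*, LIM genes that carry the ridge signal into the mesenchyme, changed by -0.35 ± 0.078 and -0.24 ± 0.049 (0.0365 and 0.0273), and the homeobox genes *Alx4* and *Prrx2* by -0.30 ± 0.056 and -0.24 ± 0.047 (0.0164 and 0.0211). The calls of *Tbx5* and of these 4 genes were each lost with at least one library left out, and 2 to 7 of the list passed then.

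Cartilage genes gave the largest share of calls in one direction among the 25 lists. Of 29 tested genes 13 (44.8%) rose and none fell, beside 2.13% of all genes, and the list median was 0.34. *Matn4* (ENSMUSG00000016995, chromosome 2, 164389393 to 164405160), a matrilin that links matrix fibers, rose from 4.71, 7.45 and 5.18 CPM to 18.7, 23.7 and 17.1 CPM (log2 fold change 1.79 ± 0.17 (SE), edgeR adjusted p 0.000462). *Col9a2* (ENSMUSG00000028626, chromosome 4, 121039385 to 121055322), a chain of the collagen that coats type II fibrils, rose from 27.2, 32.9 and 28.7 CPM to 62.8, 62.1 and 57.9 CPM (log2 fold change 1.05 ± 0.073 (SE), edgeR adjusted p 3.82e-05), the lowest adjusted p of any gene of the list. *Col9a3*, its partner chain, rose from 14.6, 14.3 and 15.4 CPM to 27.6, 31.4 and 27.3 CPM (log2 fold change 0.96 ± 0.084 (SE), edgeR adjusted p 0.000226). In these 3 genes every 12 h value lay far above the highest 6 h value. *Papss2*, which makes the sulfate donor for proteoglycans, rose from 4.59, 6.43 and 5.07 CPM to 10.2, 10.8 and 10.3 CPM (log2 fold change 0.97 ± 0.14 (SE), edgeR adjusted p 0.00506). *Col11a2* rose from 7.25, 7.81 and 6.76 CPM to 15.2, 15.5 and 11.3 CPM (log2 fold change 0.95 ± 0.14 (SE), edgeR adjusted p 0.00506). *Cnmd*, which keeps cartilage free of vessels, went from 2.74, 3.14 and 3.44 CPM to 6.06, 6.15 and 5.42 CPM (log2 fold change 0.93 ± 0.16 (SE), edgeR adjusted p 0.0136). All of these but *Cnmd*, which was lost without the first 6 h library (log2 fold change 0.84, adjusted p 0.0687) or the first 12 h library (log2 fold change 0.91, adjusted p 0.0634), kept their calls with any library left out. *Matn4* and *Col9a3* share exon sequence with *Rbpjl* and *Tcfl5* on the other strand.

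The regulators and major collagens of cartilage changed by less. *Sox9*, the master regulator, rose from 221, 223 and 204 CPM to 259.7, 281 and 242 CPM (log2 fold change 0.27 ± 0.059 (SE), edgeR adjusted p 0.0331). *Col2a1*, the main collagen of cartilage, went from 431, 481 and 458 CPM to 565, 535 and 529 CPM (log2 fold change 0.25 ± 0.049 (SE), edgeR adjusted p 0.0214). Both groups were apart in each gene, although each call was lost without any of 4 libraries (highest adjusted p 0.147 and 0.12). *Sox6* rose by 0.38 ± 0.089 (edgeR adjusted p 0.0469), whereas its partner *Sox5* (-0.040 ± 0.062, 0.779) and the BMP receptor of condensations *Bmpr1b* (0.12 ± 0.073, 0.437) did not pass, nor did *Gdf5*, a gene of future joints, whose 12 h values ran from 2.90 to 7.47 CPM with the highest in the male library (log2 fold change 0.53 ± 0.30 (SE), edgeR adjusted p 0.382). The call of *Sox6* was lost without DMSO 6 h replicate 1 or 3 or DMSO 12 h replicate 1 or 2. The late matrix gene *Acan* did not pass the filter on low counts. With one library left out 6 to 13 of the list passed, the fewest without DMSO 6 h replicate 1 or DMSO 12 h replicate 1, and the count without the male library was 8.

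Of 34 connective tissue genes 8 (23.5%) passed, each higher, beside 2.13% of all genes. A positive log2 fold change was found in 31 members and the median was 0.31. Small leucine-rich proteoglycans, which bind collagen fibrils, led the list. *Kera* (ENSMUSG00000019932, chromosome 10, 97606879 to 97613692) rose from a low level, 0.737, 0.411 and 0.175 CPM, to 2.61, 3.90 and 2.46 CPM (log2 fold change 2.66 ± 0.39 (SE), edgeR adjusted p 0.00513). *Lum*, its neighbor on chromosome 10, went from 14.2, 12.1 and 13.6 CPM to 26.4, 31.4 and 24.2 CPM (log2 fold change 1.04 ± 0.11 (SE), edgeR adjusted p 0.000817). *Dcn*, also a neighbor, went from 2.38, 2.31 and 1.51 CPM to 4.78, 5.82 and 3.24 CPM (log2 fold change 1.14 ± 0.26 (SE), edgeR adjusted p 0.039). The male library was the highest of the 12 h group in all 3, and without it *Kera* had a log2 fold change of 2.42, adjusted p 0.0169, *Lum* one of 0.92, adjusted p 0.00106, and *Dcn* one of 0.94, adjusted p 0.124. *Osr1* and *Ebf1*, transcription factors of fibroblast precursors, rose from 46.9, 44.2 and 43.9 CPM and 24.9, 24.7 and 23.4 CPM to 62.6, 82.1 and 63.8 CPM and 36.2, 41.7 and 35.1 CPM (log2 fold change 0.63 ± 0.094 and 0.63 ± 0.078, edgeR adjusted p 0.00558 and 0.00201), and kept their calls with any library left out. *Col6a1* rose by 0.65 ± 0.13 (0.0218), and its call was lost without DMSO 6 h replicate 1 or 3 or the male library. The tendon regulator *Scx* did not pass (0.12 ± 0.066, 0.388). With one library left out 4 to 15 of the list passed, with 5 without the male library.

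Muscle genes had the highest median of any list, 0.74, with 6 of 33 tested members higher, 1 lower and 27 positive. Those that passed were 21.2% of the list, beside 2.97% of all genes tested. The progenitor gene *Pax3* fell from 22, 21.7 and 22.4 CPM to 14.3, 11.2 and 15.5 CPM (log2 fold change -0.68 ± 0.11 (SE), edgeR adjusted p 0.00982), and its call was lost without DMSO 6 h replicate 3 (log2 fold change -0.68, adjusted p 0.0515). *Myod1*, which commits cells to muscle, rose from 13.3, 13 and 15.1 CPM to 24, 30.2 and 23.8 CPM (log2 fold change 0.92 ± 0.11 (SE), edgeR adjusted p 0.0017). *Myog*, which starts differentiation, went from 10.4, 11.4 and 10.54 CPM to 18.1, 36.3 and 15.6 CPM (log2 fold change 1.11 ± 0.26 (SE), edgeR adjusted p 0.0418). *Cdh15*, an adhesion gene of muscle cells, rose from 7.58, 10.9 and 8.39 CPM to 16.5, 19.7 and 16 CPM (log2 fold change 0.96 ± 0.14 (SE), edgeR adjusted p 0.0048). Each group was apart from the other in all 4 genes, and *Myog* was highest in the male library. *Tnnt1*, a troponin of slow fibers, rose from 6.51, 5.71 and 6.41 CPM to 13.4, 22.4 and 11.1 CPM (log2 fold change 1.33 ± 0.22 (SE), edgeR adjusted p 0.0112). *Mymx*, which fuses muscle cells, went from a low level, 0.410, 0.206 and 0.524 CPM, to 1.13, 1.70 and 1.28 CPM (log2 fold change 1.84 ± 0.39 (SE), edgeR adjusted p 0.0296). *Myod1* and *Cdh15* kept their calls with any library left out, *Tnnt1* lost its call without DMSO 6 h replicate 3 (1.34, adjusted p 0.0598), and *Myog*, *Mymx* and *Msc* lost theirs in at least 4 of the 6 cases. *Msc*, a repressor of the same bHLH family that was also counted with the transcription factors, rose from 3.28, 4.16 and 4.54 CPM to 6.21, 8.02 and 7.65 CPM (log2 fold change 0.88 ± 0.17 (SE), edgeR adjusted p 0.0216).

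Among the differentiation genes of muscle the male library stood apart. *Actc1*, the first actin of muscle fibers, stood at 9.09, 13 and 7.98 CPM at 6 h and 11.8, 44.4 and 11.5 CPM at 12 h and did not pass (log2 fold change 1.16 ± 0.44 (SE), edgeR adjusted p 0.199), with the male library far above the rest and the other 12 h values inside the 6 h range. The summed level of the 38 listed muscle genes was 308.5 to 338.4 CPM in the 6 h libraries and 347.5, 490.7 and 344.3 CPM at 12 h. Without the male library *Myog* had a log2 fold change of 0.64, adjusted p 0.0177, *Tnnt1* one of 0.97, adjusted p 0.0069 and *Myod1* one of 0.80, adjusted p 0.00246, and 5 of the list passed. In the 6 fits that each left out a library 2 to 5 of the list passed, the fewest without DMSO 6 h replicate 3 (2) or replicate 1 (4). *Lbx1* (-0.13 ± 0.10, edgeR adjusted p 0.556) and *Myf5* (0.15 ± 0.11, 0.516), which mark migrating and early committed precursors, did not pass, and *Pax7*, a gene of the later progenitors, did not either (1.88, 2.52 and 2.56 CPM at 6 h and 2.96, 6.81 and 2.68 CPM at 12 h; log2 fold change 0.85 ± 0.34 (SE), edgeR adjusted p 0.22).

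The factors encoded by *Myod1* and *Myog* bind a short DNA word, the E-box (CANNTG, the same on both strands). RefSeq promoter windows on GRCm38.p6, each 300 bases from 250 before to 50 after the start of the gene, were at hand for 3 of the 7 muscle genes that passed. They are shown 5′ to 3′ with E-boxes in capitals, because these 3 genes rose together with *Myod1*.
*Myog* (chr1:134289754-134290053, plus strand): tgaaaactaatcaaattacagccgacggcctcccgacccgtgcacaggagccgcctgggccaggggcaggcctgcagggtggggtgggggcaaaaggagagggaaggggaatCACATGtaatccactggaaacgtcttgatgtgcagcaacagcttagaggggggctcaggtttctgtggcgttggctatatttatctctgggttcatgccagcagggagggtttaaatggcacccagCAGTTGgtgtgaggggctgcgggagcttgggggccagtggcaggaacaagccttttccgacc
*Cdh15* (chr8:122848124-122848423, plus strand): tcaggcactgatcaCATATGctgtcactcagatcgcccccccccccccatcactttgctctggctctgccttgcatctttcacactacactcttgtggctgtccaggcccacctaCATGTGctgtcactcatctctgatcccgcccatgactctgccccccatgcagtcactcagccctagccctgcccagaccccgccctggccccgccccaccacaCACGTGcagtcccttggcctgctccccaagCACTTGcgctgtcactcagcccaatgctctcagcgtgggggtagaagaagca
*Tnnt1* (chr7:4515926-4516225, minus strand): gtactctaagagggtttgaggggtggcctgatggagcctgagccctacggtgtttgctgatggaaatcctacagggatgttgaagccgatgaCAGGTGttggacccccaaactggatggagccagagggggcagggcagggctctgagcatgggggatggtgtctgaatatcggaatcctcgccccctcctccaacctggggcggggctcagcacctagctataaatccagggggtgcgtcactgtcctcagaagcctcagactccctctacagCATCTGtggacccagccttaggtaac
All 3 windows held the word, with 2 matches in *Myog*, 4 in *Cdh15* and 2 in *Tnnt1*. It was also present in 23756 of 32851 RefSeq windows of that length (72.3%), so its presence did not set these genes apart, and a match is a description of the letters and not a bound site.

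Of 22 tested blood genes 6, of which 5 were globins, were higher and 1 was lower (31.8%, beside 2.97% of all genes tested). In fits that left out a library 4 to 9 passed, with 4 without DMSO 6 h replicate 3 or DMSO 12 h replicate 1 and 9 without DMSO 12 h replicate 2, and 3 passed with the spread shared by all 30 libraries. The adult beta-globin genes *Hbb-bs* and *Hbb-bt* went from 26.5, 28.9 and 26.4 CPM to 56.3, 63.7 and 85.5 CPM (log2 fold change 1.33 ± 0.13 (SE), edgeR adjusted p 0.000462) and from 11.9, 11.6 and 12.2 CPM to 23.4, 20.1 and 28.9 CPM (log2 fold change 1.02 ± 0.12 (SE), edgeR adjusted p 0.00192). The embryonic globins *Hbb-y* and *Hba-x* rose by 0.52 ± 0.11 and 0.53 ± 0.10 on the log2 scale (edgeR adjusted p 0.0346 and 0.0229). *Hba-a1*, an adult alpha-globin, rose by 0.78 ± 0.11 (0.00491). DMSO 12 h replicate 3 was the highest library for each of the 5 globins, and *Hbb-bs*, *Hbb-bt* and *Hba-a1* kept their calls with any library left out. *Hbb-y* lost its call in 4 of the 6 cases and *Hba-x* in 3 (highest adjusted p 0.149 and 0.115). The globin copies are nearly identical in sequence, so the split of reads between them is uncertain. The summed level of the 24 listed genes was 4628 to 5061 CPM at 6 h and 5693 to 8167 CPM at 12 h. *Tfrc*, the transferrin receptor, changed by -0.27 ± 0.047 (0.0136). How much the amount of blood in a dissected bud contributes to these values was not tested.

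Of 25 tested endothelial genes 1 passed, *Cdh5*, the cadherin of vessel walls, at 118, 126 and 119 CPM at 6 h and 102, 109 and 98.5 CPM at 12 h (log2 fold change -0.23 ± 0.052 (SE), edgeR adjusted p 0.0395), and the summed level of the list ran from 846 to 851 CPM at 6 h and from 725.4 to 792 CPM at 12 h. Among 19 tested macrophage genes *Dab2*, an endocytic adaptor that mesenchyme also expresses, rose (0.40 ± 0.090, edgeR adjusted p 0.0391), while the defining receptor *Csf1r* stood at 8.19 ± 0.0408 CPM at 6 h and 8.01 ± 0.804 CPM at 12 h (SD, n = 3; -0.033 ± 0.12, 0.916) and the complement gene *C1qa* had a log2 fold change of 0.50 ± 0.23 (adjusted p 0.299). The summed level of the 20 listed macrophage genes was 164.1 to 168.7 CPM at 6 h and 171.7 to 208.2 CPM at 12 h, without overlap. Of 19 Schwann cell precursor, crest and neuron genes 2 rose. *Cdh19*, a cadherin of Schwann cell precursors, went from 0.451, 0.257 and 0.466 CPM to 1.23, 1.37 and 1.84 CPM (log2 fold change 1.90 ± 0.36 (SE), edgeR adjusted p 0.0188). *Ngfr* went from 20.4, 20.8 and 20.0 CPM to 27.5, 34.2 and 24.1 CPM (log2 fold change 0.49 ± 0.11 (SE), edgeR adjusted p 0.0394). The defining gene *Sox10* did not pass (5.33, 4.52 and 5.94 CPM at 6 h and 8.57, 9.83 and 5.87 CPM at 12 h; log2 fold change 0.63 ± 0.19 (SE), edgeR adjusted p 0.111), and the list as a sum was 150.5 to 156.2 CPM at 6 h and 164.7 to 217.5 CPM at 12 h, highest in the male library. The calls of *Cdh5*, *Dab2*, *Cdh19* and *Ngfr* were each lost with one library left out in at least 4 of the 6 cases.

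Of 33 tested ectoderm and ridge genes 3, all keratins, rose and 2 fell (15.2%, beside 2.97% of all genes tested). A positive log2 fold change was found in 12 of them (list median -0.082). *Krt14* rose from 19, 20.3 and 15 CPM to 27.1, 38.2 and 26.7 CPM (log2 fold change 0.75 ± 0.14 (SE), edgeR adjusted p 0.0191). *Krt15* went from 10.2, 9.25 and 9.55 CPM to 14.2, 21.1 and 15.2 CPM (log2 fold change 0.80 ± 0.14 (SE), edgeR adjusted p 0.0146). *Krt17* went from 4.42, 4.11 and 4.49 CPM to 6.60, 9.01 and 9.44 CPM (log2 fold change 0.94 ± 0.17 (SE), edgeR adjusted p 0.0136). The groups of all 3 keratins were apart, although none kept its call without DMSO 6 h replicate 3. Another keratin, *Krt8*, went the other way without passing. Its log2 fold change ran from -0.451 to -0.272 over 17 alternative settings, and it passed in 3 of them. *Fgf8*, given above, and *Tfap2c* (-0.56 ± 0.13, edgeR adjusted p 0.0473) fell. The pan-epithelial genes *Epcam* (-0.17 ± 0.10, 0.396) and *Trp63* (-0.082 ± 0.067, 0.573) did not pass, and the sum of the 34 listed ectodermal genes was 822.2 to 877.3 CPM at 6 h and 798.3 to 853.7 CPM at 12 h, overlapping between the times.

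Calls among genes of cell division and ribosome biogenesis were few, as they were among all genes tested (2.97%). None of 30 mitosis genes and none of 27 ribosome biogenesis genes passed edgeR's test (5 and 3 had an unadjusted p below 0.05, and with DESeq2 1 of each list passed), and of 36 cell cycle and replication genes only *Cdkn1c*, given above, did. The list medians were -0.052, -0.051 and -0.012. A positive log2 fold change was found in 4, 5 and 17 members, beside 50.8% of all genes tested. *Mki67*, a protein of dividing cells, had the highest log2 fold change of the mitosis list. It stood at 332, 473 and 352 CPM at 6 h and 428, 469 and 413 CPM at 12 h (log2 fold change 0.18 ± 0.11 (SE), edgeR adjusted p 0.403). *Ccnd1*, a cyclin of early division, had a log2 fold change of 0.15 ± 0.054 (0.165). All 30 tested genes of cholesterol and fatty acid synthesis had a positive log2 fold change, beside 50.8% of all genes tested, and 4 of them (13.3%) passed, beside 2.13% of all genes that passed upwards. When a library was left out 0 to 5 passed, and none did without DMSO 6 h replicate 1 or 3. *Scd1*, which desaturates fatty acids, rose from 71.8, 75.4 and 73.3 CPM to 90.3, 118 and 88.1 CPM (log2 fold change 0.43 ± 0.095 (SE), edgeR adjusted p 0.0357), and *Lss*, *Fdps* and *Acaca* rose by 0.36 ± 0.071, 0.30 ± 0.058 and 0.25 ± 0.060 (edgeR adjusted p 0.0213, 0.0206 and 0.0479), with all 4 calls lost without DMSO 6 h replicate 1 or 3. Of 31 glycolysis and hypoxia entries (*Aldoa* has 2 identifiers) *Ldha*, lactate dehydrogenase, changed by -0.24 ± 0.056 (0.0464). Of 23 ATF4 and serine genes *Atf5* and *Asns* changed by -0.32 ± 0.071 and -0.26 ± 0.051 (0.0373 and 0.0236). Of 25 heat shock and immediate early genes *Jun* rose (0.32 ± 0.074, 0.0398), and of 34 Notch and Eph genes the ligand *Jag1* (0.35 ± 0.073, 0.0299) and the receptor *Epha4* (0.33 ± 0.071, 0.0338) rose. None of 26 clock and glucocorticoid genes passed edgeR's test, 4 had an unadjusted p below 0.05, and 1 passed with DESeq2. *Per1*, a core clock gene, had a log2 fold change of 0.13 ± 0.068 (0.342). The calls of *Jun*, *Jag1*, *Epha4*, *Ldha*, *Atf5* and *Asns* were each lost in at least 4 of the 6 left-out cases. The share that passed was 3.23% for glycolysis and hypoxia, 8.7% for ATF4 and serine, 4% for heat shock and 5.88% for Notch and Eph genes. Over all genes tested it was 2.97%.

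Outside the lists the largest increases among genes with a mean of at least 1 CPM included extracellular and signaling genes at low levels. *Ogn*, another leucine-rich proteoglycan, rose from 0.778, 0.874 and 0.757 CPM to 3.10, 4.94 and 1.96 CPM (log2 fold change 2.05 ± 0.35 (SE), edgeR adjusted p 0.0126). *Inhba*, which encodes the activin A subunit, rose from 0.574, 1.18 and 0.757 CPM to 2.46, 3.35 and 2.29 CPM (log2 fold change 1.70 ± 0.31 (SE), edgeR adjusted p 0.0162). *Col8a1*, a short-chain collagen, went from 2.38, 3.34 and 2.97 CPM to 7.83, 10.1 and 8.83 CPM (log2 fold change 1.63 ± 0.17 (SE), edgeR adjusted p 0.000836). The 2 groups of each gene were apart, and *Col8a1* kept its call with any library left out. *Nfix*, a nuclear factor I gene, rose from 7.50, 6.58 and 6.93 CPM to 14.6, 20.7 and 18.9 CPM (log2 fold change 1.36 ± 0.14 (SE), edgeR adjusted p 0.000649). *Synpo2l*, a protein of the Z-disc, went from 3.77, 6.17 and 4.84 CPM to 11.2, 16.5 and 12.1 CPM (log2 fold change 1.44 ± 0.19 (SE), edgeR adjusted p 0.00314). Both kept their calls with any library left out. *Rflna*, *C1qtnf7*, *Cbln4*, *Gfra3*, *Iqcg*, *Ccn3*, *Vgll2*, *Pcdhb14* and *Pdzrn4* were also among the 15 largest increases, with log2 fold changes from 1.16 (*Pdzrn4*) to 1.79 (*Rflna*), and of these 9 *C1qtnf7* alone kept its call with any library left out. *Pcdhb14* belongs to a cluster of close copies and is uncertain. By significance among genes of at least 10 CPM, *Trib2* (67.6, 69.3 and 67.9 CPM at 6 h and 95.6, 103 and 95.7 CPM at 12 h; log2 fold change 0.52 ± 0.051 (SE), edgeR adjusted p 0.000462), *Gas2* (log2 fold change 0.49 ± 0.052, edgeR adjusted p 0.000836) and *Tcp11l1* (0.67 ± 0.075, 0.00115) joined *Nfix*, *Col9a2*, *Col9a3*, *Matn4*, *Lum*, *Hoxa13* and *Hoxd13*.

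Among the decreases *Igdcc3* (ENSMUSG00000032394, chromosome 9, 65141189 to 65185872), an immunoglobulin-family membrane protein, fell from 348, 334 and 291 CPM to 158, 98 and 144 CPM (log2 fold change -1.28 ± 0.14 (SE), edgeR adjusted p 0.000836). *Prtg*, of the same family, fell from 21.8, 25.3 and 21.1 CPM to 14.1, 12 and 13.8 CPM (log2 fold change -0.77 ± 0.10 (SE), edgeR adjusted p 0.003). *Fignl2* fell from 136, 132 and 129 CPM to 92.4, 74.4 and 86 CPM (log2 fold change -0.65 ± 0.070 (SE), edgeR adjusted p 0.000836). The groups were apart in each of the 3, and the calls held with any library left out. *Hgf*, the ligand that draws muscle precursors into the limb, fell from 15.2, 14.2 and 15.6 CPM to 9.51, 7.86 and 8.94 CPM (log2 fold change -0.77 ± 0.11 (SE), edgeR adjusted p 0.0041). *Mogat2* went from 40.1, 39.2 and 38.6 CPM to 27.1, 20.8 and 26.8 CPM (log2 fold change -0.66 ± 0.092 (SE), edgeR adjusted p 0.00415). *a*, the agouti gene, went from 17.5, 15.1 and 15 CPM to 9.16, 8.41 and 10.3 CPM (log2 fold change -0.78 ± 0.11 (SE), edgeR adjusted p 0.00506). Each of these kept its call with any library left out, although *a* shares exon sequence with *Raly* on the same strand. *Sptssb*, *Gpc5*, *Dpep1* and *Camk1d* also fell, with changes of -1.51 ± 0.34, -1.30 ± 0.27, -1.22 ± 0.22 and -0.93 ± 0.16 on the log2 scale, from mean levels at 6 h of 1.75, 2.45, 6.51 and 5.70 CPM, and each lost its call with one library left out. *Nckap1* changed by -0.36 ± 0.054 (edgeR adjusted p 0.00529).

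A small set of genes was present at 6 h and nearly or wholly absent at 12 h. *Nr1h5* (ENSMUSG00000048938, chromosome 3, 102939658 to 102964133), a nuclear receptor gene that has decayed in humans, stood at 17.6, 15.7 and 19.2 CPM at 6 h and had no count in any 12 h library, at least 328.7-fold lower against a floor of 3 counts summed over the group (edgeR adjusted p 7.33e-07). *Rp1l1*, a photoreceptor gene, stood at 5.65, 7.81 and 11 CPM at 6 h and at 0 at 12 h, at least 153.4-fold lower (adjusted p 0.000174). *Abhd12b* (2.42, 2.11 and 6.12 CPM at 6 h) and *Tbx19* (3.03, 2.21 and 0.641 CPM) were also without a count at 12 h, at least 66.7-fold and 36.9-fold lower (edgeR adjusted p 0.00324 and 0.00996). In the other DMSO libraries *Nr1h5* was at 0 in all 3 of 1 h and all 3 of 24 h and at 0, 10.1 and 0 CPM at 18 h, and *Rp1l1* was at 0 in all but one library of 1 h, which held 0.0441 CPM. *Tmc6* was at 55.8, 56.1 and 56.9 CPM at 6 h and at 16.9 to 24.4 CPM in the 12 DMSO libraries of other times (log2 fold change -1.44 ± 0.065 (SE), edgeR adjusted p 7.33e-07). *Padi4* was at 5.53, 3.60 and 1.57 CPM at 6 h, 0.0493, 0 and 0.112 CPM at 12 h and 1.07, 4.44 and 0.901 CPM at 24 h (log2 fold change -5.93 ± 0.71 (SE), edgeR adjusted p 0.00182), and *Capza1*, an actin-capping gene, at 174, 168 and 175 CPM and 118, 121 and 126 CPM at 6 h and 12 h (log2 fold change -0.50 ± 0.046 (SE), edgeR adjusted p 0.000369). *Tbx19* was chosen after its values were seen. *Tmc6* shares exon sequence with *Tmc8* and *Capza1* with *St7l*, both on the other strand. In all of these but *Padi4* the 6 h values lay above those of every other DMSO library, although *Capza1* came close in 1 library of 24 h (165.7 CPM). Those of *Padi4* overlapped the values of 1 h and 24 h. Whether embryos, litters or library handling differed at 6 h was not tested.

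**Figure D4:**
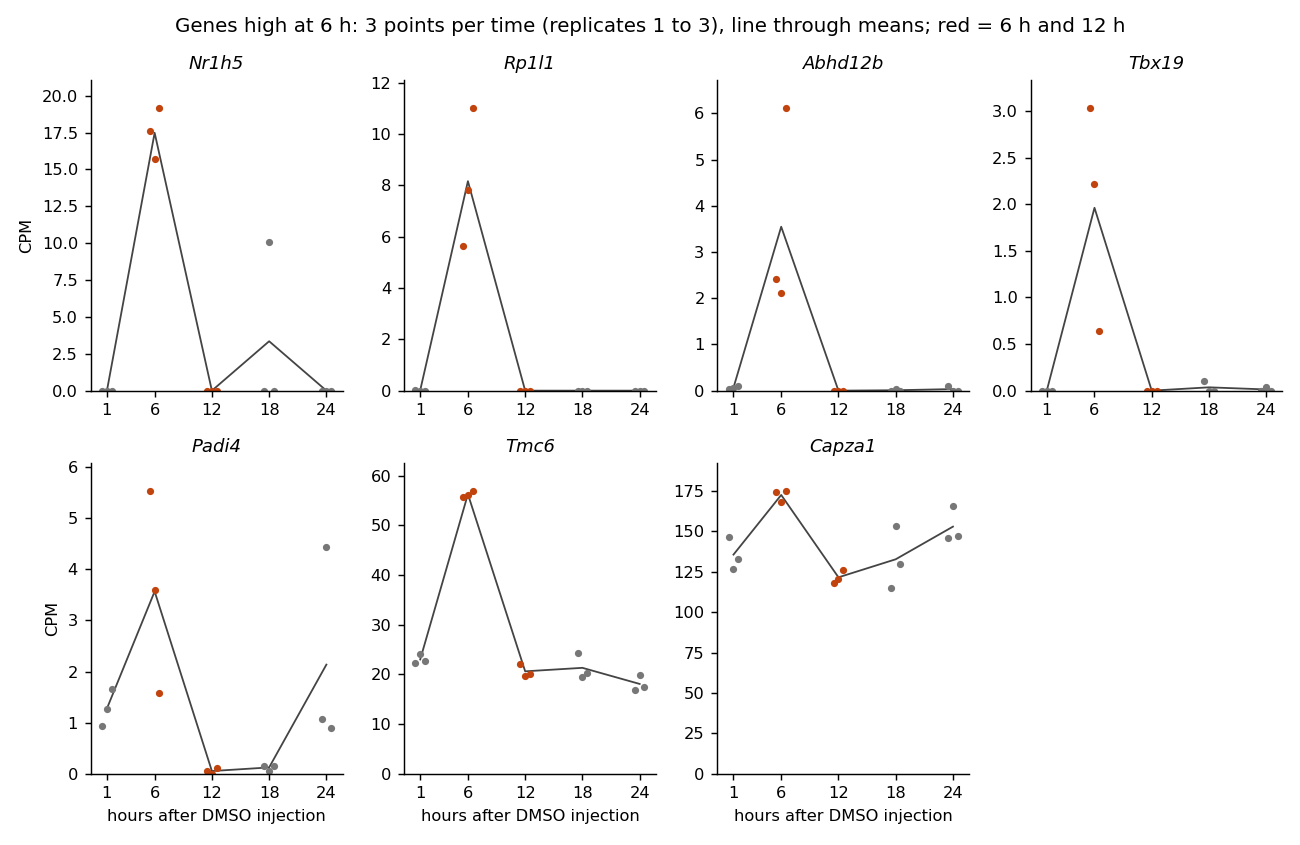
CPM (y axis, from 0) of 7 genes in the 15 DMSO libraries against hours after injection (x axis), 3 points per time with a line through the means; 6 h and 12 h are red. *Nr1h5*, *Rp1l1*, *Abhd12b* and *Tbx19* are above 0 in each 6 h library and at 0 in each 12 h library, and 1 library of 18 h also holds *Nr1h5*.

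A later interval of equal length, from 18 h to 24 h, shares no library with this one. The change differed between the intervals in 133 of 13623 genes (edgeR interaction test, 0.976%). In 76 (0.558%) the signed change was higher at 6 h to 12 h and in 57 (0.418%) it was lower. Leaving out a library, the number ran from 59 (without DMSO 18 h replicate 3) to 189 (without DMSO 12 h replicate 2), and the single genes below were not retested in that way. The distal Hox genes were among them. *Evx2* rose by 1.22 ± 0.16 here and changed by 0.077 ± 0.061 later (difference 1.12 ± 0.18, adjusted p 0.00876). *Hoxa13* rose by 0.55 ± 0.062 and changed by -0.014 ± 0.052 (0.54 ± 0.079, adjusted p 0.00559). *Hoxd12* rose by 0.40 ± 0.049 and changed by -0.043 ± 0.050 (0.43 ± 0.068, adjusted p 0.00876). *Hoxd13* rose by 0.52 ± 0.056 and changed by 0.10 ± 0.042 (0.40 ± 0.071, adjusted p 0.0152). Their rise was therefore larger in the earlier interval. *Hoxd10* did not pass at 6 h to 12 h, but its changes differed (0.43 ± 0.082, adjusted p 0.0204; later change -0.44 ± 0.062). *Bmp2* (0.57 ± 0.11, adjusted p 0.0278), *Fgfr4* (0.97 ± 0.21, adjusted p 0.0431), *Pax9* (0.94 ± 0.18, adjusted p 0.024), *Col8a1* (1.11 ± 0.18, adjusted p 0.00876) and *Kera* (2.02 ± 0.37, adjusted p 0.0174) also rose more here than later. *Tfap2b* (0.57 ± 0.071 here, -0.21 ± 0.058 later; difference 0.76 ± 0.10, adjusted p 0.0019) and *Jag1* (0.35 ± 0.073, -0.50 ± 0.091; 0.82 ± 0.13, adjusted p 0.00852) had opposite signs in the intervals, as did *Crabp1* (-0.49 ± 0.078, 0.18 ± 0.061; -0.69 ± 0.11, adjusted p 0.00876) and *Hgf* (-0.77 ± 0.11, 0.22 ± 0.14; -1.01 ± 0.17, adjusted p 0.0107) in the other direction. *Iqcg* (2.205 ± 0.35, adjusted p 0.00876) had the higher change here, and *Camk1d* (-1.30 ± 0.21, adjusted p 0.00876), *Capza1* (-0.71 ± 0.11, adjusted p 0.00876) and *Tmc6* (-1.22 ± 0.12, adjusted p 0.000253) the lower. *Shh* showed -0.28 ± 0.12 here and -2.79 ± 0.29 later, a difference of 2.48 ± 0.31, adjusted p 0.0017. *Grem1* (0.47 ± 0.10, adjusted p 0.0479) and *Cyp26b1* (0.52 ± 0.089, adjusted p 0.0121) had the higher change here without passing on their own. The cartilage genes that led the earlier rise did not pass the test of a difference, with *Matn4* at 0.87 ± 0.23, adjusted p 0.0781 and *Col9a2* at 0.38 ± 0.15, adjusted p 0.238, nor did *Myod1* (0.44 ± 0.14, adjusted p 0.148), *Igdcc3* (-0.16 ± 0.20, adjusted p 0.775) or *Lin28a* (-0.14 ± 0.27, adjusted p 0.866).

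**Figure D5:**
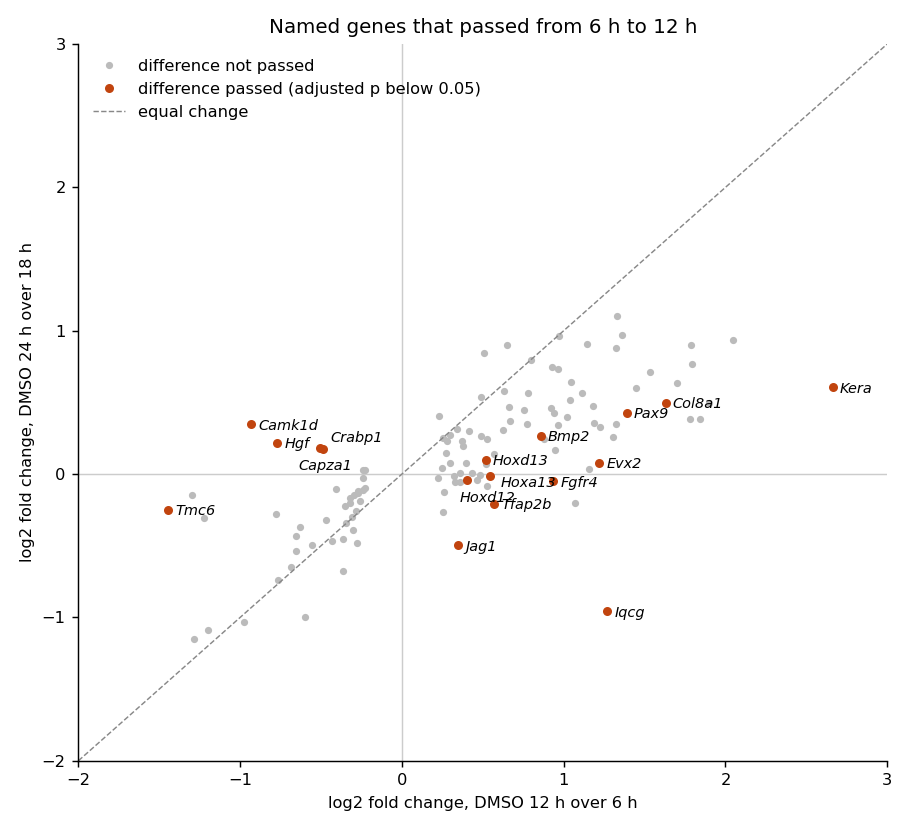
Log2 fold change at 18 h to 24 h (y axis) against that at 6 h to 12 h (x axis) for 122 named genes that passed at 6 h to 12 h; red genes differed between the intervals at an adjusted p below 0.05 and the dashed line marks equal change. The distal Hox genes lie near 0 on the y axis, and *Crabp1*, *Hgf*, *Tfap2b* and *Jag1* lie in quadrants of opposite sign. Genes with the most extreme changes, such as *Padi4*, are not drawn.

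Neighboring intervals share a group with this one, so their values are given side by side without a test. *Hoxd13* changed by 0.80 ± 0.061 from 1 h to 6 h, 0.52 ± 0.056 from 6 h to 12 h and 0.16 ± 0.057 from 12 h to 18 h. *Matn4* changed by 3.33 ± 0.29, 1.79 ± 0.17 and 1.51 ± 0.14 over the same intervals. *Myod1* changed by 1.92 ± 0.13, 0.92 ± 0.11 and 0.94 ± 0.094. All 3 of these genes had their largest step from 1 h to 6 h. *Crabp1* changed by -0.54 ± 0.053, -0.49 ± 0.078 and -0.23 ± 0.079, and *Igdcc3* by -0.91 ± 0.063, -1.28 ± 0.14 and -1.21 ± 0.15. *Pax3* changed by -0.42 ± 0.068, -0.68 ± 0.11 and -0.72 ± 0.13.

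With C59 the change over the same hours differed from that in DMSO in 2458 of 13565 genes (edgeR interaction test, 18.1%). It was higher in DMSO in 1564 (11.5%) and lower in 894 (6.59%). The arms of this test share no library. It compares changes that start at 6 h, and not levels. Several cartilage genes that rose in DMSO rose more in C59. *Sulf1*, a sulfatase that edits heparan sulfate, rose by 0.51 ± 0.10 in DMSO and 2.43 ± 0.12 in C59 (difference -1.91 ± 0.17, adjusted p 3.90e-06). *Matn4* rose by 1.79 ± 0.17 and 3.32 ± 0.27 (-1.52 ± 0.40, adjusted p 0.0149). *Sox6*, a partner of *Sox9*, rose by 0.38 ± 0.089 and 1.89 ± 0.11 (-1.51 ± 0.16, adjusted p 1.52e-05). *Col9a1* rose by 0.23 ± 0.042 and 1.37 ± 0.076 (-1.13 ± 0.10, adjusted p 2.08e-06). *Fst* and *Sfrp2* also rose more in C59 (-1.21 ± 0.28, adjusted p 0.00605; -1.08 ± 0.15, adjusted p 0.000165). Some genes that fell in DMSO fell more in C59. *Fgf8* changed by -0.60 ± 0.092 in DMSO and -2.17 ± 0.20 in C59 (1.59 ± 0.21, adjusted p 0.00011). *Msx1* changed by -0.41 ± 0.060 and -1.36 ± 0.11 (0.96 ± 0.13, adjusted p 8.35e-05). *Dkk1* changed by -0.63 ± 0.10 and -1.93 ± 0.20 (1.30 ± 0.21, adjusted p 0.000557). *Prrx2* changed by -0.24 ± 0.047 and -1.17 ± 0.055 (0.94 ± 0.072, adjusted p 9.25e-07). *Crabp1* changed by -0.49 ± 0.078 and -1.56 ± 0.078 (1.08 ± 0.12, adjusted p 2.36e-05). *Pax3* changed by -0.68 ± 0.11 and -1.92 ± 0.17 (1.25 ± 0.21, adjusted p 0.000573). *Rspo4* (0.83 ± 0.27, adjusted p 0.0435), *Lhx2* (0.79 ± 0.14, adjusted p 0.000901) and *Lhx9* (0.39 ± 0.069, adjusted p 0.00104) also fell more in C59. Others that fell in DMSO did not pass the test of a difference: *Rspo2* (-0.20 ± 0.23, adjusted p 0.591), *Alx4* (0.45 ± 0.19, adjusted p 0.112), *Tfap2c* (0.46 ± 0.26, adjusted p 0.242) and *Id2* (0.22 ± 0.089, adjusted p 0.101). Of the distal Hox genes, *Evx2* (0.75 ± 0.23, adjusted p 0.036) and *Hoxd13* (0.60 ± 0.16, adjusted p 0.0172) had the higher change in DMSO. *Hoxa13* (0.43 ± 0.16, adjusted p 0.07) and *Hoxd12* (0.17 ± 0.13, adjusted p 0.389) did not pass. *Myod1* (0.91 ± 0.19, adjusted p 0.00377), *Tfap2b* (0.70 ± 0.15, adjusted p 0.00357) and *Scd1* (1.38 ± 0.13, adjusted p 3.90e-06) also had the higher change in DMSO, and *Scd1* changed by -0.94 ± 0.061 in C59. *Igdcc3* (0.27 ± 0.22, adjusted p 0.43), *Lin28a* (-0.39 ± 0.22, adjusted p 0.26), *Kera* (1.29 ± 0.64, adjusted p 0.179) and *Lum* (-0.26 ± 0.21, adjusted p 0.432) did not pass this test of a difference.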

How the data were processed

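RNA was measured in mouse forelimb buds as polyA libraries. Per the labels and the methods, the authors trimmed reads with Cutadapt 1.16, aligned them to mm10 with STAR 2.7.0e and deposited whole-number counts per gene. The counting tool's strand setting is not given in the sources used here. Shared exon sequence is marked above for some genes only. Others that share it with a gene on the other strand include *Nfix*, *Lin28a*, *Pax9*, *Zic1*, *Spred3*, *Fst*, *Sfrp2*, *Wnt5a*, *Cdkn1c* and *Shh*. *Hgf* shares it with a gene on the same strand. The authors also deposited FPKM values made with Cufflinks 2.2.1, which served for Y-linked genes and as an alternative. The count table held no gene of chromosomes X, Y or M, and 205 of 50833 genes had no match in the annotation.

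Counts of protein-coding genes were filtered with filterByExpr (minimum 10, total 15), scaled by TMM and tested with edgeR 4.0.16 (R 4.3.3) by the quasi-likelihood method in the 6 libraries, with Benjamini-Hochberg adjustment over all genes tested and a threshold of 0.05. CPM were scaled by TMM over the 15 DMSO libraries. The precision is that of 3 libraries a group of 18188636 to 25290624 counts, and p-values measure only the spread between these samples. An exact permutation test of 3 against 3 cannot go below 0.1. Differences between intervals or treatments were interaction contrasts over 12 libraries. The steps were tested on simulated data.

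The groups, and 25 lists of 719 genes, were chosen with earlier results of these data known, and support nothing on their own. Named genes were up to 6 members per list, passing members with the largest change first, and others whose role was needed (more are given for some lists, chosen after their values were seen), the 15 largest changes each way outside the lists (groups apart, mean of at least 1 CPM), the 10 most significant each way (at least 10 CPM), and the 5 largest differences in each interaction test. Genes with near-identical copies were left out of the last 3. Some genes are not reported here. Alternatives were DESeq2 1.42.0, other scalings and filters, limma 3.58.1 on log2 FPKM with 1 or 0.1 added, glmTreat, a replicate block, wider sets of libraries and each library left out. The contrast of 18 h with 1 h, the counts per list under each setting and the levels of genes high at 6 h were added after seeing the data. Coordinates are mm10. Figures were drawn with matplotlib 3.10.9.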

Additional observations from a re-analysis of the deposited data

Results flagged for a closer look

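The change from 6 h to 12 h differed from that at 18 h to 24 h, by edgeR's interaction test at an adjusted p below 0.05, in genes described above and in others with the largest differences. Values are the log2 change at 6 h to 12 h minus the later one, so a positive value is a higher change in the earlier interval. Among Hox and limb signaling genes the difference was 1.12 for *Evx2*, 0.538 for *Hoxa13*, 0.435 for *Hoxd10*, 0.426 for *Hoxd12*, 0.398 for *Hoxd13*, 2.48 for *Shh*, 0.57 for *Bmp2*, 0.473 for *Grem1*, 0.97 for *Fgfr4*, -0.686 for *Crabp1*, 0.523 for *Cyp26b1* and 0.822 for *Jag1*. Among transcription factors and muscle genes the difference was 0.941 for *Pax9* and 0.757 for *Tfap2b*. Among matrix genes the difference was 1.11 for *Col8a1* and 2.02 for *Kera*. For the remaining genes the difference was -0.706 for *Capza1*, -4.49 for *Gm10320*, -1.01 for *Hgf*, 2.2 for *Iqcg*, -10.2 for *Padi4*, -1.3 for *Camk1d* and -1.22 for *Tmc6*.

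The change over the same hours also differed between DMSO and C59 by the same kind of test. Values are the log2 change in DMSO minus that in C59. Among Hox and limb signaling genes it was 0.745 for *Evx2*, 0.6 for *Hoxd13*, 4.62 for *Shh*, -1.02 for *Grem1*, 1.59 for *Fgf8*, 1.3 for *Dkk1*, -1.08 for *Sfrp2*, -1.21 for *Fst*, 0.964 for *Msx1*, -1.1 for *Bmpr1b* and 1.08 for *Crabp1*. Among transcription factors and muscle genes it was 0.703 for *Tfap2b*, 1.25 for *Pax3*, 0.913 for *Myod1*, 0.936 for *Prrx2* and -1.51 for *Sox6*. Among matrix genes it was -1.52 for *Matn4*, -1.13 for *Col9a1* and -1.91 for *Sulf1*. For the remaining genes it was 4.15 for *Ctse*, 3.89 for *Gm32687*, -4.94 for *Gm4737*, 1.38 for *Scd1* and -1.82 for *Tmc6*. *Shh*, *Evx2*, *Hoxd13*, *Grem1*, *Crabp1*, *Tfap2b* and *Tmc6* thus differed in both tests, which share the DMSO 6 h and 12 h libraries. *Gm10320*, *Gm4737* and *Gm32687* are predicted genes. Groups of 3 libraries are too small for a test of single outlying libraries.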

How the results depend on the processing

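No result reversed under the alternatives run. The groups of all 387 genes do not overlap, so leaving out a library could not turn a direction. Without TMM or with other filters on low counts the counts stayed within 1.5 times the reported ones, as did DESeq2 (485 passing, 362 of the 387 kept). With the spread shared by the 15 DMSO libraries 605 passed, 201 of them lower and 73 higher by more than 2-fold. limma on log2(FPKM + 1) gave 108 passing, 83 higher and 25 lower, with 4 higher and 4 lower by more than 2-fold. With 0.1 added it gave 101, 76 and 25, with 23 higher by more than 2-fold. glmTreat, which tests against a 2-fold change itself, gave 0 higher (48 by the estimate) and 6 lower. With one library left out 107 to 449 passed, 80 to 311 higher and 27 to 138 lower, and 19 to 44 were higher by more than 2-fold. The difference from 18 h to 24 h passed in 369 genes with DESeq2, and in 59 to 189 with one library left out. The cause was not tested. The difference from C59 stayed within 1.5 times in all alternatives run.

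With the replicate number as a block 590 genes passed, 431 of them higher, and 384 of the 387 were kept. The labels do not say what a number shares, and same-numbered libraries deviated together with r of -0.0173, 0.156 and 0.0809, so the numbers were not read as a pairing. DMSO 6 h replicates 1 to 3 did not each correlate best with their own number.

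Depth limits genes near the floor: 3 counts over a group correspond to 0.0492 CPM at 6 h and 0.0532 CPM at 12 h. Counts at an unadjusted p below 0.05 were 2307, and most calls rest on small changes that 3 libraries a group resolve only in part.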
